A study of Saccharomyces cerevisiae with 2 samples.

Results

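The 3 thioredoxins TRX1, TRX2 and TRX3 and the 2 thioredoxin reductases TRR1 and TRR2 of budding yeast were taken by name from the deposited expression table, which gave all 5 genes out of 6142 named ones. A sixth row with a similar symbol, TRR4, is a transfer RNA gene in the RefSeq annotation and was not included. RNA was sequenced from 2 cultures of BY4741, a common haploid MATa lab strain, which were grown in rich glucose medium to an optical density of 0.3 to 0.5. The untreated culture received no agent, and the other was exposed to 2.5 mM paraquat for 8 h. Paraquat takes electrons from cellular reductases and passes them to oxygen, which yields superoxide. Each condition is 1 library, so no value below has a replicate check, no p-value was computed, and neither culture-to-culture variation nor the hours of growth can be told apart from the treatment. In a bulk culture, less RNA per cell cannot be told apart from fewer cells that hold it.

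Thioredoxins are small proteins that reduce disulfides in other proteins with a pair of cysteines. A thioredoxin oxidized in that reaction is reduced again by thioredoxin reductase, a flavoprotein that spends NADPH. In yeast the cytosol holds Trx1, Trx2 and Trr1 and the mitochondria hold Trx3 and Trr2, and the cytosolic pair serves peroxiredoxins, ribonucleotide reductase and the reduction of sulfate. TRX2 and TRR1 are known targets of Yap1, a transcription factor of the response to peroxide, and of its partner Skn7.

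The cysteine pair is what all 5 proteins share, so the coding strand around it is shown, with both cysteine codons in capitals. Sequences were read by gene name from the RefSeq R64 genome and lie at chrXII:231906-231938 for TRX1, chrVII:913117-913149 for TRX2 (both on the minus strand), chrIII:259728-259760 for TRX3, chrIV:1183710-1183742 for TRR1 and chrVIII:326078-326110 for TRR2 (plus strand), all inside exons. The build the authors used is not given in the sources used here.
TRX1: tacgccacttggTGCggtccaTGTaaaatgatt
TRX2: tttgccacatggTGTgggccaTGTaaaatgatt
TRX3: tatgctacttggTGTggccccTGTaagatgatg
TRR1: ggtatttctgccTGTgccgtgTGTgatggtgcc
TRR2: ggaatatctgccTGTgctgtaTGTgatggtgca
The cysteines are residues 30 and 33 of Trx1, 31 and 34 of Trx2, 55 and 58 of Trx3, 142 and 145 of Trr1 and 165 and 168 of Trr2. Trx1 and Trx2 have 103 and 104 residues and were identical at 78.6% of 103 aligned residues. Trx3, with 127 residues, was 45.1% identical to Trx1 and 42.2% to Trx2. Trr1 (319 residues) and Trr2 (342 residues) were 85.6% identical over 319 aligned residues. At the DNA level the coding sequences of TRX1 and TRX2 were 75.2% identical, with a longest shared run of 17 bases, and those of TRR1 and TRR2 were 77.4% identical, with a longest shared run of 20 bases. No annotated gene overlaps any of the 5.

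The cytosolic thioredoxin transcripts differed in opposite directions after paraquat, and TRX2, which held slightly more of their reads than TRX1 in the untreated library, held most of them after paraquat. TRX2 had 71297 normalized reads in the untreated library and 176508 in the paraquat library, which is 2.48-fold higher (95% counting interval 2.45 to 2.50). TRX1 had 54754 normalized reads in the untreated library and 22092 after paraquat, which is 2.48-fold lower (2.44 to 2.52). TRX2 was thus above TRX1 in both libraries, and the gap was wider in the paraquat library. Normalized reads are the authors' read counts divided by 1 size factor per library, and each interval is the exact (Clopper-Pearson) one for how the reads divide between libraries. It reflects counting alone, with every read treated as a separate molecule.

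The ratio of TRX2 to TRX1 per coding length, which does not depend on how the libraries were scaled, was 1.29 in the untreated library and 7.91 in the paraquat library. TRX2 made up 56.6% of the 115106 reads on both genes in the untreated library (exact binomial 95% interval 56.3% to 56.8%) and 88.9% of 217484 reads after paraquat (88.7% to 89.0%). The log2 change of TRX2 exceeded that of TRX1 by 2.62 (95% counting interval 2.59 to 2.64, normal approximation), a 6.14-fold difference. Added together, the cytosolic thioredoxins had 401833 normalized reads per kb of coding length in the untreated library and 631151 after paraquat, and their summed normalized reads were 1.58-fold higher (1.56 to 1.59). The lower TRX1 reads were therefore outweighed by the higher TRX2 reads, and the sum stayed below 2-fold.

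TRR1, the cytosolic reductase that keeps both of these thioredoxins reduced, was higher alongside TRX2. It had 108510 normalized reads in the untreated library and 223612 after paraquat, which is 2.06-fold higher (2.05 to 2.08). Its log2 change, 1.04, lay 0.39 above that of the summed cytosolic thioredoxins (95% counting interval 0.37 to 0.40) and 0.26 below that of TRX2 alone. Per coding length, the summed cytosolic thioredoxins had 3.56 times the TRR1 level in the untreated library and 2.71 times in the paraquat library.

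The mitochondrial genes stayed close to their untreated values. TRX3 had 5671 normalized reads in the untreated library and 4688 after paraquat, a log2 change of -0.27 (-0.33 to -0.22). TRR2 had 7509 in the untreated library and 7231 after paraquat, a log2 change of -0.05 (-0.10 to -0.01). Both values lie slightly below 0 as deposited, but scaling to total gene reads moves every log2 value up by 0.26 and puts TRX3 at -0.016 and TRR2 at 0.20, so TRX3 kept its sign but lay near 0 and TRR2 turned from below to above 0. TRX3 stood at 2.02 times TRR2 per coding length in the untreated library and at 1.74 times after paraquat.

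**Figure D1:**
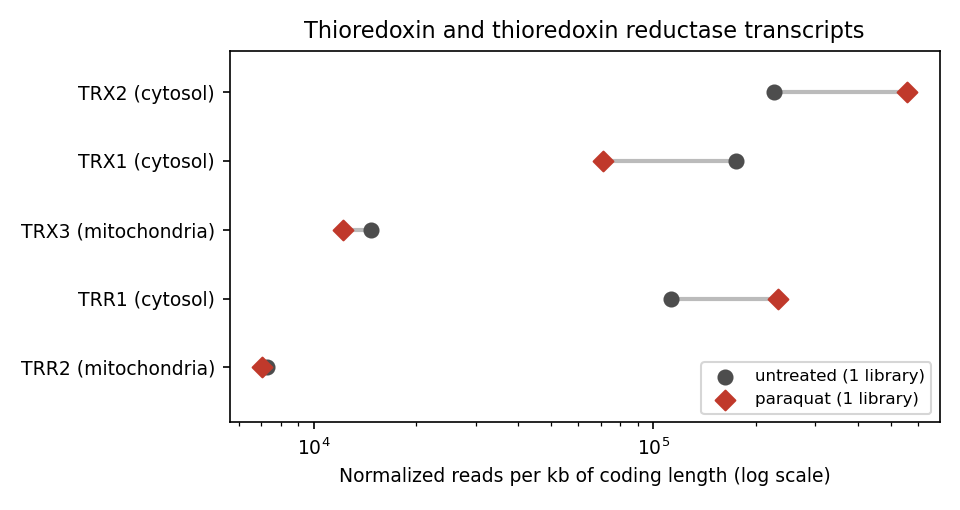
Normalized reads per kb of coding length (horizontal, log scale) of the 5 genes in the untreated library (grey circles) and the paraquat library (red diamonds), with 1 library each and no error bars. TRX2 and TRR1 lie to the right after paraquat, TRX1 lies to the left, and the mitochondrial TRX3 and TRR2 lie far lower with little distance between libraries.

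The plot of levels by library shows the distance between compartments. Per kb of coding length, the order in the untreated library was TRX2 (226339 normalized reads), TRX1 (175494), TRR1 (113031), TRX3 (14769) and TRR2 (7297). In the paraquat library TRX2 (560342) was followed by TRR1 (232929), TRX1 (70809), TRX3 (12209) and TRR2 (7028), so TRR1 and TRX1 swapped places. With no spread between cultures, it cannot be said which neighbours in these orders differ, and since untranslated ends were not counted into the lengths, the levels of these short genes are approximate. Among 5812 protein-coding genes that averaged 50 or more normalized reads, TRX2 moved from rank 189 to rank 45 in level per coding length, TRR1 from 277 to 160 and TRX1 from 221 to 388. TRX3 ranked 1758 in the untreated library and 2025 after paraquat, and TRR2 ranked 2986 and 3069.

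The cytosolic and mitochondrial arms of the system therefore stood further apart in the paraquat library. The level of the summed cytosolic thioredoxins was 27.2 times that of TRX3 per coding length in the untreated library and 51.7 times after paraquat. As log2 changes, the cytosolic sum exceeded TRX3 by 0.93 (0.87 to 0.99), but the mean of the separate TRX1 and TRX2 changes exceeded it by 0.27, because these cancel. TRX1 alone lay 1.03 below TRX3 on the log2 scale, so the larger distance from the mitochondrial gene was that of TRX2 and of the sum, and not of TRX1. For the reductases, TRR1 had 15.5 times the TRR2 level per coding length in the untreated library and 33.1 times after paraquat, and its log2 change was higher by 1.098 (1.05 to 1.15). These differences between genes of the same libraries do not depend on the scaling.

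Against the whole table, 2 of the 5 genes (TRX2 and TRR1) were at least 2-fold higher, where 3.08% of the 5973 genes averaging 50 or more normalized reads were, and 1 (TRX1) was at least 2-fold lower, where 1.52% were. All 5 genes passed that minimum. Scaled to total gene reads, the whole table held 313 genes at least 2-fold higher and 43 lower in place of 184 and 91, and the 3 calls among the 5 genes stood, with TRX1 at a log2 change of -1.05. Counted from the highest log2 change, TRX2 ranked 100 and TRR1 ranked 169 of 5973, and counted from the lowest, TRX1 ranked 39. In the authors' deposited table, the unadjusted p was 0.0381 for TRX2, 0.0384 for TRX1, 0.0621 for TRR1, 0.461 for TRX3 and 0.872 for TRR2. Of all 6142 genes in the authors' deposited table, 2.12% had an unadjusted p under 0.05 and 0% an adjusted p under 0.05, and the adjusted p of each of the 5 genes was 0.999. That test compared 1 library with 1 and holds no information on the spread between cultures.

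As deposited, abundant genes were on the whole lower in the paraquat library. Scaling to total gene reads moves every log2 value, and so each median below, up by 0.26. Each gene was therefore also set beside genes of like level, those with a mean within 2-fold of its own. The 393 genes like TRX2 had a median log2 change of -0.32, and 90% of them lay between -0.94 and 0.91, below the 1.31 of TRX2, while 17 (4.33%) were at least 2-fold higher. The 302 genes like TRR1 had a median of -0.37, and 9 of them (2.98%) were at least 2-fold higher. The 1231 genes like TRX1 had a median of -0.09, and 25 of them (2.03%) were at least 2-fold lower. For TRX3 and TRR2 the medians were 0.03 and 0.01, and both genes fell inside the middle 90% of their groups, from -0.47 to 0.60 and from -0.48 to 0.54.

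**Figure D2:**
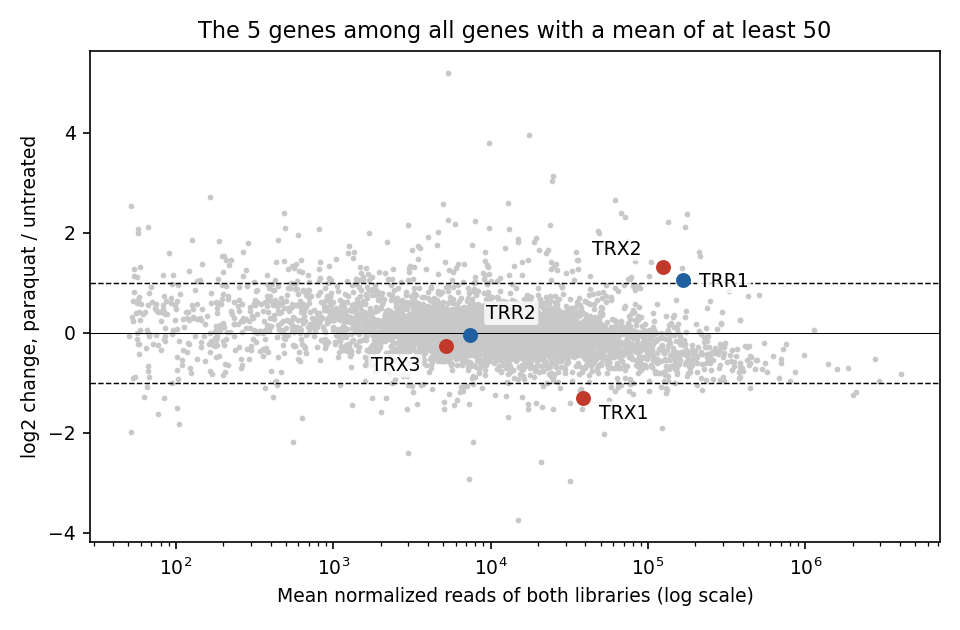
The log2 change of each gene (vertical) against its mean normalized reads in both libraries (horizontal, log scale), for the 5973 genes with a mean of at least 50 (grey), with the thioredoxins in red and the reductases in blue. Dashed lines mark 2-fold. TRX2 and TRR1 lie above the upper line among genes of high mean, TRX1 lies below the lower line, and TRX3 and TRR2 lie inside the cloud.

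In this plot of change against mean level, the points of TRX2 and TRR1 lie above most genes of their level, and the cloud slopes downward at the right. Genes with the nearest log2 change at like level were named for each member, over these 2 libraries only, so likeness means a single ratio. For TRX2 (log2 change 1.31) these were ACO1, the mitochondrial aconitase, at 1.29 and FTR1, the iron permease of high-affinity uptake, at 1.41. For TRR1 they were ENB1, a siderophore transporter, at 1.14 and DSE2, a daughter-cell wall protein, at 0.93. For TRX1 (-1.31) they were RPS22B, a ribosomal protein, at -1.31 and HOM6, homoserine dehydrogenase, at -1.34. For TRX3 they were YML020W at -0.27 and AVO2 at -0.28, and for TRR2 they were TBS1 and PNP1, both at -0.05.

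Opposite changes within a pair of related genes were rare in these libraries. Among 447 pairs of yeast proteins that are each other's best match, identical at 40% or more of residues across 80% or more of the longer protein and both genes past the minimum mean, 2 pairs (0.447%) had one gene at least 2-fold higher and the other at least 2-fold lower. TRX2 with TRX1 was the more widely separated of them. Scaled to total gene reads, the TRX pair alone was left. The median distance between the genes of a pair was 1.21-fold. The TRX pair, at 6.14-fold, had the fourth largest distance (rank 4), and TRR1 with TRR2, at 2.14-fold, ranked 48. The opposite changes of TRX1 and TRX2 were known when this comparison was chosen, so the ranks only describe these libraries.

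**Figure D3:**
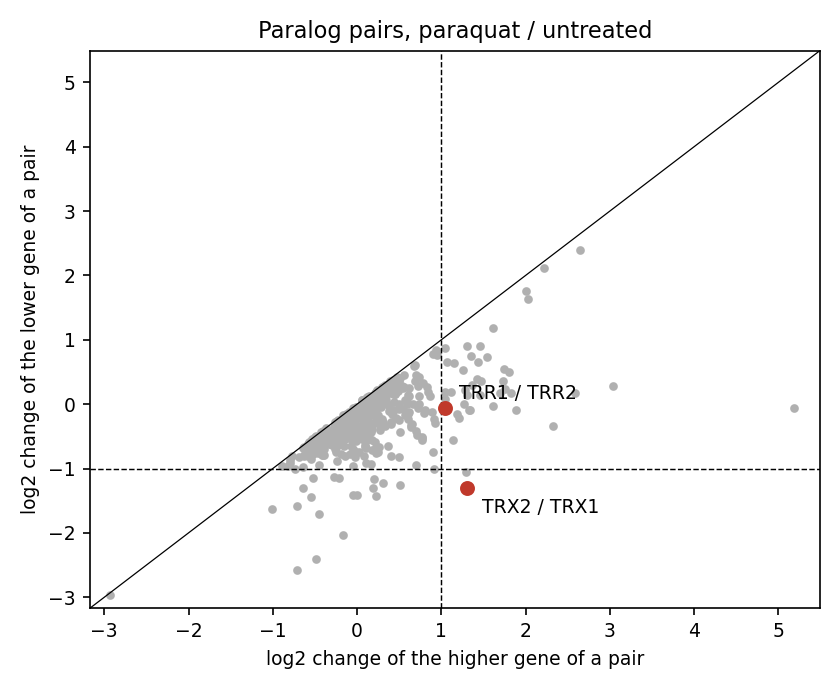
Each point is 1 of 447 paralog pairs, with the log2 change of its higher gene (horizontal) against that of its lower gene (vertical). The solid line marks equal change and dashed lines mark 2-fold higher and 2-fold lower. The pair of TRX2 and TRX1 lies in the lower right corner, beyond both dashed lines, and the pair of TRR1 and TRR2 lies near a log2 change of 0 on the vertical axis.

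The plot of paralog pairs shows most pairs close to the line of equal change. DNA upstream of the genes was then compared for motifs of factors known to act on TRX2. The searches covered 300 bases before the start codon on both strands for TTACTAA and TGACTAA (forms of the Yap1 site), GGCNGGC (a form of the Skn7 site) and CCCCT (the core of the general stress element bound by Msn2 and Msn4). Bases 300 to 101 before the start codon are shown for the gene highest after paraquat by log2 change, for the reductase that was higher with it and for the gene that was lower, with matches to the first 3 motifs in capitals, on the coding strand of each gene (RefSeq R64, chrVII:913328-913527 minus for TRX2, chrIV:1182999-1183198 plus for TRR1 and chrXII:232114-232313 minus for TRX1).
TRX2: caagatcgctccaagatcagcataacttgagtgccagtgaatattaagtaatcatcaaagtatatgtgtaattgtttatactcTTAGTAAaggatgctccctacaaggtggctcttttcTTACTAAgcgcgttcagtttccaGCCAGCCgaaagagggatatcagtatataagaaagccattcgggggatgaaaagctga
TRR1: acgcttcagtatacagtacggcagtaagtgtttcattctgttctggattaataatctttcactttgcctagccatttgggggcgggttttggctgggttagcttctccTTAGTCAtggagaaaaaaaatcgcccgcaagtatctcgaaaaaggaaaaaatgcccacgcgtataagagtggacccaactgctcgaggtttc
TRX1: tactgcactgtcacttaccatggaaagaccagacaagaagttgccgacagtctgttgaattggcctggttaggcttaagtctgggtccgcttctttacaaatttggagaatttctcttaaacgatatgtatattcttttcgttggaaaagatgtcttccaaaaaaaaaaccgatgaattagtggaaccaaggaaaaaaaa
TRX2 held 2 matches to TTACTAA, at 217 to 211 bases before the start codon (minus strand) and at 181 to 175 bases (plus strand), and 1 match to GGCNGGC at 158 to 152 bases. TRR1 held 1 match to TGACTAA, at 192 to 186 bases (minus strand). None of these 3 motifs matched in the 300 bases before TRX1, TRX3 or TRR2. The windows of TRX2 and TRR2 reach into the next gene upstream. YGR210C ends 275 bases before TRX2 and YPT35 ends 187 bases before TRR2. CCCCT matched once before TRX3, at 53 to 49 bases (plus strand), and once before TRR2, at 64 to 60 bases (minus strand), and not before TRX2, TRR1 or TRX1. The matches did not overlap each other. Over the same window, TTACTAA matched before 7.82% of 6001 nuclear protein-coding genes, TGACTAA before 3.68%, GGCNGGC before 3.4%, CCCCT before 22.2% and TTACTAA at 2 or more places before 0.433%. A match is a description of the sequence and no evidence that a factor was bound, and a missing match says only that these letters are not in that window.

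Among genes that work with thioredoxin, several peroxidase genes were past 2-fold. In a list of 9 peroxidases and their repair enzyme, 4 were at least 2-fold higher and 0 lower, where 3.08% and 1.52% of all genes were, with a median log2 change of 0.76 beside -0.003 over all 5973 genes. SRX1, the sulfiredoxin that repairs overoxidized peroxiredoxins, went from 1313 to 18268 normalized reads, 13.9-fold higher (13.1 to 14.8). GPX2, a thioredoxin-dependent lipid hydroperoxide peroxidase, went from 23859 to 119244, and PRX1, the mitochondrial peroxiredoxin, from 11218 to 35299. PRX1 was 3.15-fold higher (3.08 to 3.22) although TRX3 and TRR2 of the same compartment stayed near their untreated values. The fourth was TSA2, a minor cytosolic peroxiredoxin, 2.56-fold higher, which was named after its value was seen. As deposited, 5 of the 9 genes lay above 0 and 4 below, where 2966 and 3006 of all 5973 genes did. Lowest was AHP1, a thiol peroxidase that Trx2 reduces, at a log2 change of -0.46. HYR1 stood at -0.33, GPX1 at -0.10 and DOT5 at -0.04.

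In the remaining 4 lists no gene passed 2-fold, which is near the background for lists this short, since 3.08% of all genes were past it upward and 1.52% downward. Of 8 other enzymes that take electrons from thioredoxin, such as methionine sulfoxide reductases and ribonucleotide reductase, 0 passed 2-fold and the median log2 change was -0.03. The largest was RNR1, the large subunit of ribonucleotide reductase, 1.82-fold higher (1.79 to 1.85). Among the regulators YAP1, SKN7 and YBP1, 0 of 3 passed 2-fold, and YAP1 was 1.39-fold higher (1.37 to 1.41). Of 8 genes that supply NADPH, the electron source of thioredoxin reductase, 0 passed, with a median of 0.15. Of these, 6 lay above 0, among them IDP2, the cytosolic NADP-dependent isocitrate dehydrogenase, at 1.86-fold higher (1.75 to 1.97) and ZWF1, the entry enzyme of the pentose phosphate pathway, at 1.43-fold higher. ALD6, a cytosolic aldehyde dehydrogenase, had the largest fold as deposited, 1.95-fold lower (1.93 to 1.96), while IDP2 was the one past 2-fold when scaled to total gene reads. IDP2, ZWF1 and GRX2 were named after their values were seen. The glutathione and glutaredoxin system, the parallel route of disulfide reduction, had 0 of 11 genes past 2-fold and a median of 0.17. GRX3 was 1.47-fold lower (1.44 to 1.503) and GRX2 was 1.45-fold higher (1.42 to 1.48), with overlapping intervals, and scaling to total gene reads puts GRX2 further from 0 than GRX3. GLR1, glutathione reductase and the counterpart of TRR1, had a log2 change of -0.06. Scaled to total gene reads, 5 of the 9 peroxidase genes and 1 each of the other thioredoxin-linked and NADPH genes were past 2-fold. At that scaling 313 genes of the whole table were at least 2-fold higher and 43 lower, in place of 184 and 91. The shares of 3.08% and 1.52% above belong to the deposited scaling.

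**Figure D4:**
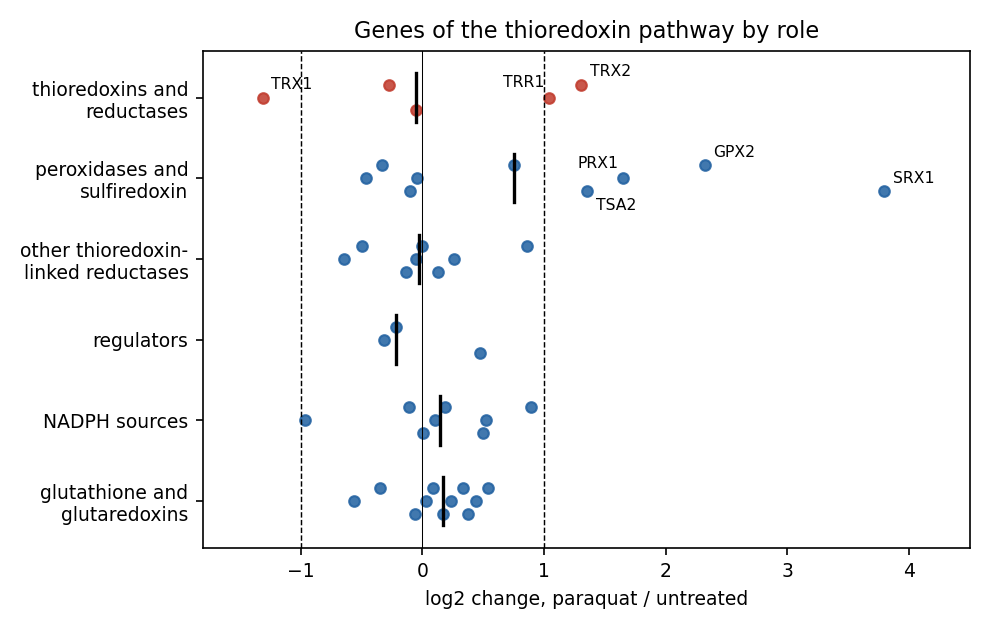
The log2 change (horizontal) of each gene in 6 groups by role (vertical), with the thioredoxins and reductases in red, other genes in blue and the median of each group as a black bar. Dashed lines mark 2-fold, and genes past them are named. The thioredoxin genes lie on both sides, the named peroxidase genes lie to the right, and the other 4 groups lie between the dashed lines.

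The plot of the pathway by role shows the values as deposited, before the shift that total-read scaling brings. Depth did not limit these values: the libraries held 164909400 and 165264107 reads on named genes, and the least covered of the 5 genes, TRX3, had 5179 and 5134 reads. Of mating-type genes, the 5 a-cell genes examined summed to 251160 and 167886 normalized reads and the 4 alpha-cell genes to 6581 and 7883. The log2 changes of all 5 a-cell genes lay below 0 and those of 3 of the 4 alpha-cell genes above 0. Of all 5973 genes, 2966 lay above 0 and 3006 below. Among the a-cell genes, 2 were at least 2-fold lower, BAR1 at 2.17-fold and AGA2 at 2.54-fold, where 1.52% of all genes were. The alpha-cell gene below 0, MF(ALPHA)1, had only 50 and 46 reads. Single genes overlapped in level, since the alpha-cell gene SAG1 had 5205 normalized reads after paraquat and the a-cell gene AGA2 had 3466. Of 4 genes deleted in whole or part in this strain background, LEU2, MET17 and URA3 were not among the rows analysed here, and HIS3 had 17852 and 12482 normalized reads.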

How the data were processed

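Per the labels, RNA was isolated with a column kit and libraries followed a standard Illumina workflow; strand handling and the genome build are not stated there. Tools listed in the submitters' processing notes, with no roles, are STAR 2.5.2b, Trimmomatic 0.36, featureCounts, Subread 1.5.2 and DESeq2. The single table the authors deposited holds a normalized signal for each gene in either library: each value was a whole multiple, within 0.01 read, of 1.10 units (untreated) or 0.913 units (paraquat) in 100% of rows. This step was taken as 1 read, which all counting intervals rest on; the smallest values are then 3 and 4 reads. Log2 changes in the deposited table match the ratio of these signals within 8.38e-05, and the deposited p-values were copied as the authors gave them. The 1 row without a name (0.00449% and 0.00675% of reads) was left out.

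The members, gene lists and comparisons were chosen with earlier results of these data known, and the motifs after the values were seen. Genes were called at 2-fold where both libraries averaged 50 or more normalized reads, with no test, because each group has 1 library; no count model was run for the same reason. Genes matched RefSeq R64 by name in 5919 of 6142 rows. Named genes are the 5 members, up to 3 per pathway list past 2-fold (otherwise the largest), the 2 nearest genes per member and paralog pairs with opposite 2-fold changes, of which 1 is not reported here. Paralog pairs came from proteins translated from the R64 coding sequences, since no protein table was used here (BLAST 2.17.0). Scripts ran in Python 3.11.15 (scipy 1.17.1, pandas 2.3.3, numpy 2.4.6, matplotlib 3.10.9). The fold rule was run on simulated counts with counting noise only and with planted changes larger than 2-fold. That run checks the code and says nothing on variation between cultures.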

Additional observations from a re-analysis of the deposited data

How the results depend on the processing

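The differences of TRX2 over TRX1 and of TRR1 over TRR2, and the TRX2 shares, kept their values within counting error under pseudocounts of 1 and 10 or per coding length, and centring on the median gene moved no result beyond its counting interval or count limit. Scaled to total gene reads, the log2 changes were -1.05 for TRX1, 1.57 for TRX2, -0.016 for TRX3, 1.30 for TRR1, 0.20 for TRR2 and 0.91 for the cytosolic sum; with upper-quartile scaling TRX1 was at -1.28, TRX2 at 1.34, TRR1 at 1.07 and the sum at 0.69. The shift is the same for every gene by construction. With the mean of the TRX1 and TRX2 changes in place of their sum, the difference to TRX3 was 0.27. At 3-fold, 0 of the 5 genes passed. Over the whole table, genes higher and lower numbered 313 and 43 when scaled to total gene reads, 463 and 351 at 1.5-fold, and 63 and 16 at 3-fold. Other thioredoxin-linked reductases past the threshold numbered 1 when scaled to total gene reads and 2 at 1.5-fold, as did NADPH genes (1 and 2). Opposite paralog pairs numbered 1 when scaled to total gene reads, 5 at 1.5-fold and 1 at 60% identity. TMM scaling was planned for whole read counts. It was not run because the recovered counts, with smallest values of 3 and 4 reads, did not pass the check set for such counts. No paired analysis was possible because each group has 1 library. Depth limits none of the 5 genes; the missing replicates do.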

Other observations

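Beyond the comparisons above, the subunits of ribonucleotide reductase, a main user of cytosolic thioredoxin, lay on both sides. RNR1 went from 30162 to 54896 normalized reads, a log2 change of 0.86, while the small subunit genes RNR2 and RNR4 stood at -0.64 and -0.50 and the second large subunit gene RNR3 at 0.13. The glutaredoxin pairs were split less widely than the thioredoxins, with GRX2 at 0.54 and GRX1 at -0.35, and GRX4 at 0.17 and GRX3 at -0.56. A wide split was not particular to the thioredoxins. In the peroxidase list, GPX2 at 2.32 and HYR1 at -0.33 lay 6.29-fold apart, rank 3 of the 447 pairs and wider than TRX2 and TRX1 at 6.14-fold. TSA2 at 1.36 and TSA1 at 0.76 were closer together. These genes were picked after their values were seen, and the differences have no replicate check.

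The 26 genes with 2 or more matches to TTACTAA in the 300 bases before the start codon included 4 (15.4%) past 2-fold upward and 0 downward, where 3.08% and 1.52% of all genes were. The 4 were HBN1 (3.33-fold), OYE3 (3.06-fold), TRX2 (2.48-fold) and YPL278C (2.36-fold). The motif was chosen with the value of TRX2 known, the cut of 2 matches is the number TRX2 itself holds, and TRX2 is 1 of the 4. The median log2 change of the 26 genes was 0.12. Of 462 measured genes with at least 1 match, 13 were at least 2-fold higher (2.81%). Of 216 measured genes with a match to TGACTAA, the motif found before TRR1, 13 (6.02%) were past 2-fold upward and 3 downward. For GGCNGGC, 8 of 199 measured genes (4.02%) were past 2-fold upward and 5 downward. For CCCCT, 41 of 1304 (3.14%) were past it upward and 13 downward.

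The nearest gene to TRX1 is PDC1, the main pyruvate decarboxylase, which ends 376 bases upstream on the same strand and had 3284478 and 2278491 normalized reads, a log2 change of -0.53 beside the -1.31 of TRX1. SER2 ends 100 bases beyond the end of TRX2 on the other strand and had 21486 and 14423 normalized reads, a log2 change of -0.58, opposite in sign to the 1.31 of TRX2. Whether reads from a neighbour's untranslated end were counted in either gene was not tested.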
